A study of Mus musculus with 16 samples.

Results

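Fc receptors are the proteins by which cells recognise the constant part of antibodies. A set of 7 genes of this family was described in 16 bulk RNA libraries of mouse mononuclear phagocytes: Fcgr1, Fcgr2b, Fcgr3, Fcgr4, Fcer1g, Fcgrt and Fcrls. The members were chosen by gene symbol and are 7 of the 45664 entries of the deposited count table. All 7 passed the filter on low counts.

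The libraries came from 4 populations, each with 4 libraries; all mice were C57BL/6, at an age of 8 to 10 weeks, and the study set out to compare their gene expression. The sort gate was CD45+CD11b+CD64+F4/80+ for the cornea macrophages. For the microglia of retina and brain it was CD45+CD11b+, without a marker that separates microglia from other myeloid cells. Bone marrow monocytes were sorted as CD45+CD11b+CD115+Ly6C+ cells. The labels name no transgene or treatment for any of the 4 groups, although the labels' text on RNA extraction describes brainstem of another mouse line and so cannot be taken for these samples. A cornea or retinal sample was a pool of 10 mice, per the labels. The labels of the 8 brain and marrow samples name retinal microglia in 1 field, against their title and source, so their pool size was treated as unknown. In 3 titles, those of cornea 1 and of retina 1 and 3, the number stands without the letter b found in the remaining 13, and each shares its number with another library of its population, so results were also fitted without them. Cornea was digested with collagenase at 37 °C and retina was dispersed mechanically in the cold, while no source used here gives the tissue steps for brain and marrow. Nothing states that the libraries of a population came from separate animals, so the p-values measure the spread between these samples only.

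Mouse phagocytes carry 3 activating receptors for IgG, encoded by Fcgr1 (CD64), Fcgr3 (CD16) and Fcgr4 (CD16-2), and 1 inhibitory receptor, encoded by Fcgr2b (CD32). The activating receptors signal through a common gamma chain, the product of Fcer1g, whose tyrosine motif is phosphorylated by Src family kinases and then recruits the kinase Syk. The inhibitory receptor instead recruits the lipid phosphatase SHIP1, encoded by Inpp5d. Fcgrt encodes the heavy chain of FcRn, which pairs with beta-2 microglobulin and returns IgG and albumin from endosomes to the cell surface. Fcrls belongs to the Fc receptor-like family and is used in mouse as a marker of brain microglia.

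CD64 was 1 of the proteins on which cornea macrophages were selected, so Fcgr1 levels in that population are given without a test. An antibody against CD16 and CD32, the products of Fcgr3 and Fcgr2b, was added as a block before staining of cornea and retinal cells, per the labels' protocols.

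Of the 7 genes, 4 lie together on chromosome 1 of build GRCm38 in GENCODE vM21, namely Fcgr2b at chr1:170958617-170976547, Fcgr4 at chr1:171018920-171029761, Fcgr3 at chr1:171051174-171064935 and Fcer1g at chr1:171229572-171234365. Fcrls at chr3:87250758-87263738 and Fcgr1 at chr3:96282909-96293969 lie on chromosome 3, and Fcgrt at chr7:45092990-45103851 on chromosome 7. Fcgr4 is on the plus strand and the other 6 are on the minus strand. The antisense gene Gm38204 shares 155 exon bases with Fcgr2b, and reads of that stretch cannot be assigned without strand, which is uncertain here.

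Fcgr2b and Fcgr3 also share coding sequence, which bears on how their reads can be told apart. Of the 1298 distinct stretches of 50 bases in Fcgr3 transcripts, 166 (12.8%) also occur in Fcgr2b transcripts, and in no other gene of the annotation. For Fcgr2b, 7.44% of 3347 such stretches recur in Fcgr3 or in other genes, while the other 5 members have none that recur. The longest identical run is 129 coding bases that span exons 3 and 4 in both genes, in Fcgr2b at chr1:170966674-170968081 and in Fcgr3 at chr1:171054167-171057792, minus strand. It is printed in lower case throughout because no base differs.

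Fcgr2b and Fcgr3 shared run: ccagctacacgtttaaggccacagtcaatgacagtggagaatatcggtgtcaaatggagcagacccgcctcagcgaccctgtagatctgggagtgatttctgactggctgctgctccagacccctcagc

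No source used here says how reads matching more than 1 gene were counted, so the division of counts between Fcgr2b and Fcgr3 is uncertain to that extent.

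The promoters of the 3 activating receptor genes are shown because each holds the letters GAGGAA, the core of sites of the myeloid factor PU.1 in textbook descriptions. The windows are the 150 bases before the RefSeq start (GRCm38.p6), read on the gene's own strand, with matches in capitals (TTCCTC is the same motif read on the other strand). The motif was searched on both strands.

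Fcgr1, chr3:96293970-96294119, minus strand: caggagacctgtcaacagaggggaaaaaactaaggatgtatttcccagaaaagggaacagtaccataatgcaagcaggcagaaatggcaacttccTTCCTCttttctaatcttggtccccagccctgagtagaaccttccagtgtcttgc
Fcgr3, chr1:171059404-171059553, minus strand: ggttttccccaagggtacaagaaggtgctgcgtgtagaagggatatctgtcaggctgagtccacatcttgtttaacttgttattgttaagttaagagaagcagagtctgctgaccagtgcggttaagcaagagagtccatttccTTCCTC
Fcgr4, chr1:171018776-171018925, plus strand: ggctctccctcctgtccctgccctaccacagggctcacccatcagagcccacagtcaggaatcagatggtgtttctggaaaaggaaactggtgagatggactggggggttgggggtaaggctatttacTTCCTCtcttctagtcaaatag

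The GAGGAA match began 55 bases before the start in Fcgr1, 6 bases in Fcgr3 and 22 bases in Fcgr4. Fcrls also held it, 144 bases before its start, and Fcgr2b, Fcer1g and Fcgrt did not in this window. By gene, 4 of the 7 members held GAGGAA in a window (the overlapping windows of the 2 RefSeq starts of Fcgr3 hold the same match), against 14.5% of 32851 mouse promoter windows of that length. The first share is by gene and the second by window, and they were not compared by a test. These matches are letters in a window and were not tested as binding sites.

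The libraries held 12.57 M to 21.76 M counts in cornea macrophages, 10.71 M to 19.94 M in retinal microglia, 8.68 M to 12.85 M in brain microglia and 8.91 M to 20.71 M in bone marrow monocytes. The labelled cell types were checked against marker lists, whose levels were summed in CPM, read counts per 1 M counts of a library after TMM scaling (trimmed mean of M values, a factor that corrects totals for differences in composition). A list of 5 microglial markers summed to 899–1220 CPM in cornea, 21700–29100 CPM in retina, 34300–38000 CPM in brain and 210–285 CPM in marrow. The classical monocyte list summed to 15400–22400 CPM in marrow and 536–1070 CPM in cornea, and to at most 15.7 CPM in microglia. The tissue macrophage list summed to 2060–2270 CPM in cornea and to at most 31.8 CPM elsewhere. Markers of other tissues were present too: photoreceptor genes summed to 689–6210 CPM in retina, cornea epithelium and stroma genes to 1240–2100 CPM in cornea, and neutrophil genes to 669–4400 CPM and erythroid genes to 248–1650 CPM in marrow. Each of these lists was at most 28.6 CPM in the remaining populations. Dendritic cell genes summed to 73.9–124 CPM in cornea and 80.2–125 CPM in marrow, against at most 13.7 CPM in either microglial population. Their part in the levels of the Fc receptor genes was not tested. In bulk RNA, fewer cells that express a gene and less of its RNA per cell cannot be told apart.

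Together the 7 genes took 0.18–0.199% of the counts in cornea libraries, 0.301–0.394% in retinal, 0.575–0.695% in brain and 0.131–0.163% in marrow libraries. They differed widely in how much they varied. The SD of log2 CPM over the 16 libraries was 4.88 for Fcrls, which 0.267% of the 15754 tested genes exceeded. It was 0.32 for Fcer1g, which 94.5% of genes exceeded, and 0.43 for Fcgr2b, which 86.3% exceeded. The plot of levels by library shows each gene on its own axis and marks the sequencer lane, 2 or 3, that the column headers of the count table name.

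**Figure D1:**
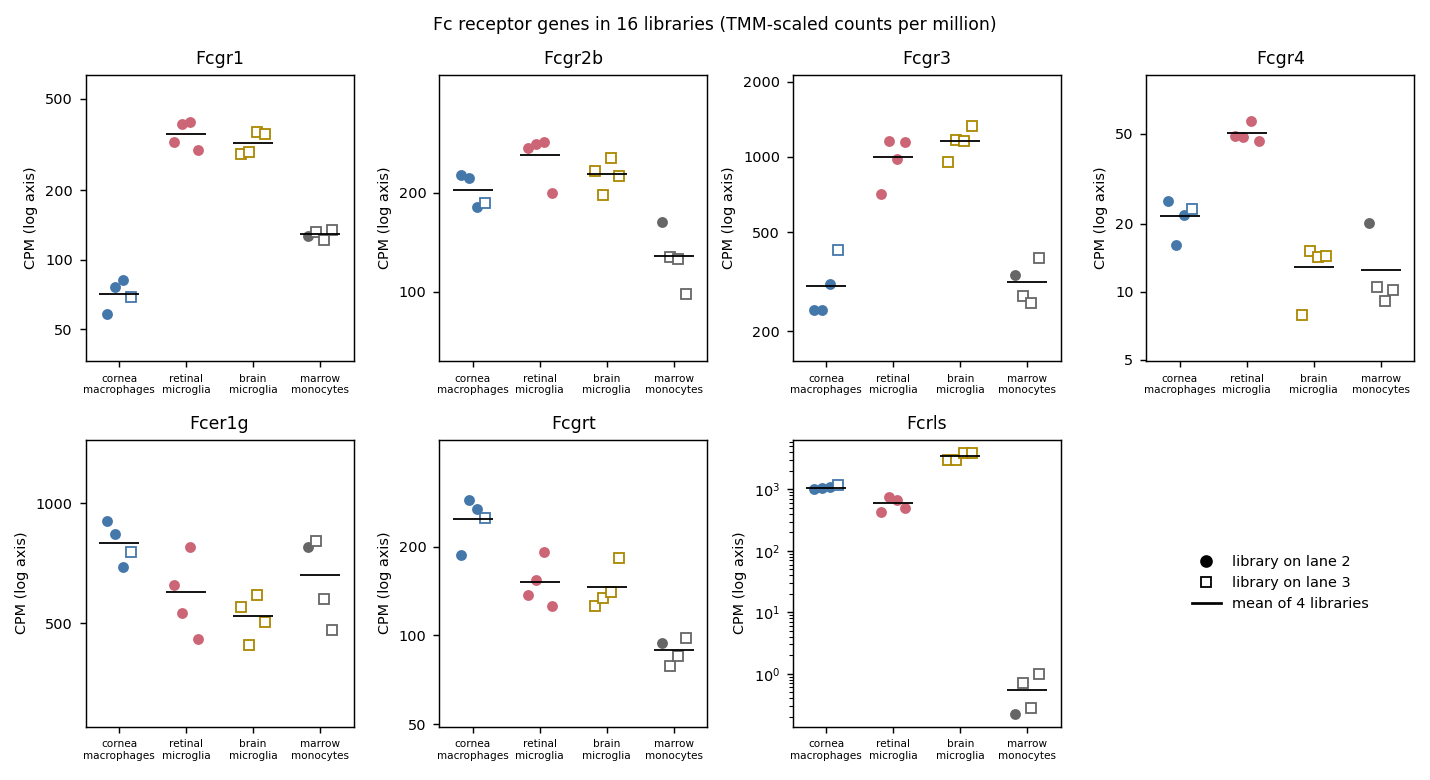
TMM-scaled CPM (log axis) of the 7 genes in each library of cornea macrophages, retinal microglia, brain microglia and bone marrow monocytes, filled circles for libraries on sequencer lane 2, open squares for lane 3, and a line at the mean of 4 libraries. Fcgr1 and Fcgr3 are higher in both microglial populations than in cornea or marrow, Fcgr4 is highest in retina, and Fcrls falls below 1 CPM in every marrow library.

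Among the activating receptors, Fcgr3, the low-affinity receptor, had by far the highest level per kilobase of gene in each population. It had 243.2, 243.9, 309.8 and 424.9 CPM in cornea macrophages, 708.9, 1154, 982.3 and 1147 CPM in retinal microglia, 954.1, 1170, 1156 and 1334 CPM in brain microglia, and 337.4, 276.9, 260.5 and 392.2 CPM in bone marrow monocytes. Every microglial library lay above every cornea and marrow library. Relative to retina, Fcgr3 was lower in cornea by -1.71 on the log2 scale (SE 0.20; adjusted p = 1.3e-06, from the quasi-likelihood test of edgeR, adjusted by Benjamini and Hochberg's method across the 15754 genes). Relative to brain it was lower in cornea by -1.92 (SE 0.21; adjusted p = 3.3e-07). Cornea and marrow did not differ detectably, at -0.05 with a 95% interval of -0.48 to 0.38 (adjusted p = 0.838), and the 2 ranges overlap; with total counts alone it was -0.72 (adjusted p = 0.00382). Retinal microglia exceeded marrow by 1.66 (adjusted p = 2.58e-06) and brain microglia exceeded marrow by 1.86 (adjusted p = 5.97e-07). Retina and brain gave -0.21, interval -0.64 to 0.22 (adjusted p = 0.578). Within single lanes the same differences were -1.93 for cornea over retina and 1.91 for brain over marrow, and both passed. Cornea over brain was -1.46 with cornea 4 as the single cornea library of lane 3. Retina over marrow was 1.58 with marrow 1 as the single marrow library of lane 2.

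Fcgr1 encodes the high-affinity IgG receptor. In cornea macrophages, the population sorted on its protein, it had 58.09, 75.9, 81.88 and 68.86 CPM, below every library of the other 3 populations. Retinal microglia had 323.9, 388.9, 397.5 and 299.7 CPM, brain microglia 286.6, 293.6, 358.3 and 351.5 CPM, and bone marrow monocytes 127.3, 132.5, 122.3 and 134.1 CPM. The microglial populations overlap each other and both lie above all marrow libraries. As a description, the cornea mean was 4.95-fold lower than that of retina, 4.53-fold lower than that of brain and 1.81-fold lower than that of marrow. Retinal microglia exceeded marrow by 1.45 on the log2 scale (SE 0.13; adjusted p = 7.31e-08) and brain microglia exceeded marrow by 1.32 (SE 0.13; adjusted p = 1.97e-07). Within single lanes these were 1.49, with marrow 1 as the single marrow library of lane 2, and 1.33 (adjusted p = 3.72e-06). Retina over brain was 0.13, interval -0.16 to 0.41, and did not pass the test (adjusted p = 0.606).

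Fcgr4, the receptor that in mouse binds IgG2a and IgG2b, was the activating receptor that separated the microglial populations from each other. It had 25.25, 16, 21.81 and 23.28 CPM in cornea macrophages, 48.84, 48.47, 56.96 and 46.43 CPM in retinal microglia, 7.877, 15.12, 14.26 and 14.34 CPM in brain microglia, and 20.12, 10.45, 9.119 and 10.21 CPM in bone marrow monocytes. All retinal libraries lay above all 12 others, with no overlap. Retinal microglia exceeded brain microglia by 1.96 on the log2 scale (SE 0.26; adjusted p = 9.84e-05) and marrow by 2.00 (SE 0.26; adjusted p = 4.86e-06). Cornea was lower than retina by -1.22 (SE 0.25; adjusted p = 0.000444), and by -1.28 (adjusted p = 0.000626) among the libraries of lane 2. Brain and marrow were not distinguishable, at 0.04 with an interval of -0.52 to 0.60 (adjusted p = 0.925).

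Fcgr4 was also higher in cornea than in brain, by 0.74 (adjusted p = 0.0171), and than in marrow, by 0.78 (adjusted p = 0.0135). Neither passed with total counts alone (0.08 and 0.12), and single libraries decided both calls. Against brain the call was lost without cornea 1 (0.64, adjusted p = 0.0555) and without brain 1 (0.56, adjusted p = 0.0642), and with lane as a term (0.44, adjusted p = 0.21). Against marrow it was lost without marrow 3 (0.65, adjusted p = 0.0517). Within lane 2, where 3 cornea libraries meet marrow 1 alone, the difference was 0.06. Within lane 3, where cornea 4 alone meets 3 marrow libraries, it was 1.23. Marrow 1 had the highest Fcgr4 level and also the highest neutrophil marker sum, 4396 CPM, against 668.9 to 2030 CPM in the other marrow libraries, although the CD115+Ly6C+ gate should remove neutrophils. Its erythroid sum, 1645 CPM against 247.8 to 1066 CPM, and its NK and mast cell sums, 18.41 and 11.55 CPM, were also the highest in marrow. The NK sum was Nkg7 alone, and the other 5 listed NK genes had no count in marrow. The mast cell sum was mostly Kit, with up to 11.01 CPM, and 4 listed mast cell genes had no count in marrow. The part of other cell types in its Fcgr4 level was not tested. Ly6C-low monocytes are known for high Fcgr4 in mouse, and a list of 6 of their markers summed to 512–716 CPM in cornea, 66.9–92.2 CPM in retina, 67.8–81.4 CPM in brain and 384–477 CPM in marrow. In cornea most of the sum was Nr4a1, with 508.7 CPM against 60.57 CPM in marrow, and Treml4 had 69.01 CPM in cornea against 29.1 CPM in marrow. Ace, which had 43.05 CPM in marrow, had no count in cornea or retina. The part of such cells in the Fcgr4 levels was not tested.

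The inhibitory receptor Fcgr2b varied least among the 4 IgG receptors. It had 226.8, 222, 180.7 and 186.2 CPM in cornea macrophages, 273.3, 281.9, 285.8 and 199.5 CPM in retinal microglia, 233.3, 197, 255.6 and 224.4 CPM in brain microglia, and 163.1, 127.7, 125.4 and 98.48 CPM in bone marrow monocytes. Every marrow library lay below every library of the tissue populations, which overlap one another. Fcgr2b exceeded its marrow level by 0.66 in cornea (adjusted p = 0.00144), by 1.01 in retina (adjusted p = 3.45e-05) and by 0.82 in brain (adjusted p = 0.000269). The cornea call depends on the scaling, since with total counts alone the difference was -0.01. Within lane 2, with marrow 1 as the single marrow library, cornea gave 0.36 and retina 0.69. Within lane 3, with cornea 4 as the single cornea library, cornea gave 0.67. Among the tissue populations no difference passed the test: cornea over retina was -0.35 (adjusted p = 0.0577), cornea over brain -0.16 (adjusted p = 0.381) and retina over brain 0.19 (adjusted p = 0.504). With total counts alone the first was -1.14 (adjusted p = 2.85e-06) and the second -0.83 (adjusted p = 8.6e-05). The first is also close to the threshold, and limma-voom (-0.34, adjusted p = 0.0494) and 6 of the 16 fits that left out 1 library called it (without cornea 1, cornea 2, retina 4, brain 3, marrow 1 or marrow 4).

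The 4 IgG receptor genes were then compared within each library per kilobase of deposited gene length, which removes library scaling from the ratio. Activating receptor level (Fcgr1, Fcgr3 and Fcgr4 summed) over Fcgr2b level was 4.66 to 9.01 in cornea macrophages (median 6.02), 12.1 to 23.6 in retinal microglia (median 16.5), 16.5 to 23.6 in brain microglia (median 21) and 9.21 to 16.8 in bone marrow monocytes (median 9.69). All cornea libraries lay below all libraries of the other populations, and the microglial ranges overlap that of marrow through marrow 4 alone. Because Fcgr1 enters the sum, the ratio of Fcgr3 to Fcgr2b was also taken, and it was 3.58 to 7.61 in cornea, 8.65 to 19.2 in retina, 13.6 to 19.8 in brain and 6.9 to 13.3 in marrow. Retina and cornea stay apart in that ratio, while marrow overlaps both cornea and retina. With the length of the longest coding transcript in place of the deposited length, the median activating to inhibitory ratios were 4.51, 12.3, 16 and 7.18 in cornea, retina, brain and marrow. Cornea and marrow then met, since the highest cornea ratio (cornea 4) and the lowest marrow ratio (marrow 1) were both 6.86. These ratios are descriptions and carry the uncertainty of reads shared by Fcgr2b and Fcgr3.

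**Figure D2:**
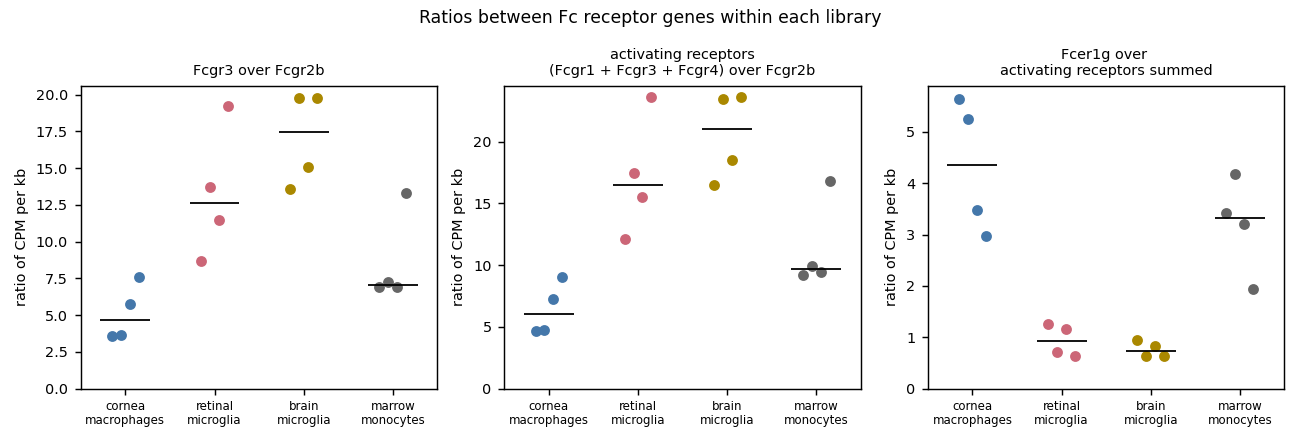
Ratios of CPM per kilobase between Fc receptor genes within each library, by population from cornea macrophages to bone marrow monocytes, with a line at the median of 4 libraries. Activating over inhibitory receptor ratios are 4.66 to 9.01 in cornea and 16.5 to 23.6 in brain, and Fcer1g over activating receptors is 2.97 to 5.65 in cornea and at most 1.25 in either microglial population.

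As shares of the summed level per kilobase of the 4 receptors, Fcgr3 took 67.9% ± 5.99 in cornea, 71.8% ± 5.19 in retina, 79.1% ± 1.8 in brain and 68.7% ± 4.0 in marrow (SD, n = 4 each). Fcgr2b took 14.3% ± 3.84 in cornea, 5.79% ± 1.48 in retina, 4.74% ± 0.811 in brain and 8.53% ± 1.96 in marrow. Fcgr4 took 6.82% ± 1.56 in cornea and 1.21% ± 0.239 in brain. The stacked plot gives the underlying levels by library.

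**Figure D3:**
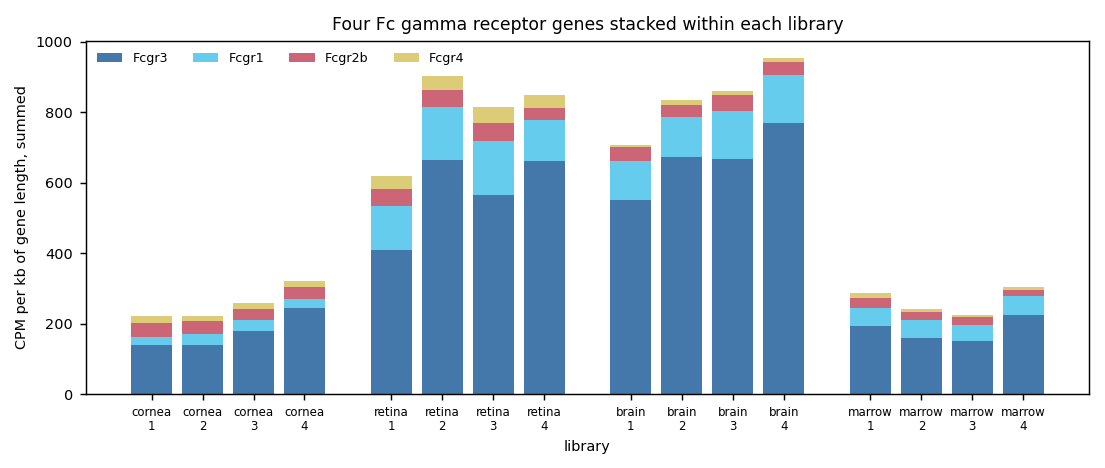
Summed CPM per kilobase of the 4 IgG receptor genes in each library, with 1 bar per library from cornea to marrow and colours for Fcgr3, Fcgr1, Fcgr2b and Fcgr4. Fcgr3 is the tallest segment in all 16 bars, and the retinal and brain bars stand above all cornea and marrow bars.

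Fcer1g, the signalling chain, ran differently from the receptors that need it. It had 901.3, 839.2, 689.9 and 753.5 CPM in cornea macrophages, 624.3, 530.8, 776.8 and 457 CPM in retinal microglia, 548.1, 440.5, 588.2 and 505 CPM in brain microglia, and 778.3, 802.8, 574.8 and 482.1 CPM in bone marrow monocytes. All cornea libraries exceeded all brain libraries, and every other pair of populations overlaps. Cornea exceeded brain by 0.61 (SE 0.18, adjusted p = 0.00682). That call was lost with total counts alone (-0.06) and with lane as a term (0.45, adjusted p = 0.106). Within lane 3, with cornea 4 as the single cornea library, the difference was 0.51. Cornea over retina was 0.41 with an interval of 0.02 to 0.81 (adjusted p = 0.0534), just short of the threshold. It was called with RLE size factors (0.46, adjusted p = 0.0317), by DESeq2 (0.46, adjusted p = 0.0215) and limma-voom (0.44, adjusted p = 0.0276), and with lane as a term (0.47, adjusted p = 0.0373). The fits without cornea 3, retina 3 or marrow 4 called it too, as did the fit without the 3 libraries whose titles lack the letter b (0.60, adjusted p = 0.0242), but with total counts alone it was -0.37 (adjusted p = 0.0615). No other comparison passed: cornea over marrow was 0.27 (adjusted p = 0.202, but -0.41 with total counts alone, adjusted p = 0.0445), retina over brain 0.20 (adjusted p = 0.559), retina over marrow -0.14 (adjusted p = 0.513) and brain over marrow -0.34 (adjusted p = 0.12, called without marrow 4 at -0.47, adjusted p = 0.0355).

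Set against the 3 activating receptors per kilobase, gamma chain RNA was highest in cornea and marrow. The ratio of Fcer1g to the summed activating receptors was 2.97 to 5.65 in cornea macrophages (median 4.36), 0.643 to 1.25 in retinal microglia (median 0.936), 0.63 to 0.941 in brain microglia (median 0.728) and 1.93 to 4.19 in bone marrow monocytes (median 3.32). The ranges of cornea and marrow lie wholly above those of both microglial populations.

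Fcgrt, the FcRn heavy chain, was highest in cornea and lowest in marrow. It had 188.2, 289, 268.9 and 250.3 CPM in cornea macrophages, 136.8, 154.1, 191.7 and 125.7 CPM in retinal microglia, 126, 133.7, 140.8 and 183.3 CPM in brain microglia, and 94.01, 78.43, 85.08 and 98.34 CPM in bone marrow monocytes. All cornea libraries lay above all brain libraries, cornea 1 fell just below retina 3, and every marrow library lay below every other library. Cornea exceeded retina by 0.71 (SE 0.16; adjusted p = 0.00107), although with total counts alone the difference was -0.08. It exceeded brain by 0.77 (SE 0.16; adjusted p = 0.000544), against 0.10 with total counts alone (adjusted p = 0.565). Cornea exceeded marrow by 1.49 (SE 0.17; adjusted p = 6.46e-07), retina exceeded marrow by 0.77 (adjusted p = 0.000695) and brain exceeded marrow by 0.71 (adjusted p = 0.00137). Within lane 2 the retinal excess was of like size with 1 marrow library (0.71). Retina over brain was 0.06, interval -0.30 to 0.42 (adjusted p = 0.882).

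The FcRn partner B2m, beta-2 microglobulin, also serves MHC class I. It averaged 2319 ± 435 CPM in cornea macrophages, 1177 ± 388 CPM in retinal microglia, 950.1 ± 291 CPM in brain microglia and 1273 ± 201 CPM in bone marrow monocytes (SD, n = 4 each). Cornea exceeded retina by 0.98 (adjusted p = 0.00149), brain by 1.29 (adjusted p = 0.000139) and marrow by 0.87 (adjusted p = 0.00392). With total counts alone, cornea over retina was 0.19 (adjusted p = 0.453) and cornea over marrow 0.19 (adjusted p = 0.464). None of the other 3 comparisons passed for B2m, with brain over marrow at -0.42 (adjusted p = 0.135), called without brain 3 (-0.62, adjusted p = 0.0337).

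Fcrls had the widest range of the set. It had 999.3, 1036, 1075 and 1162 CPM in cornea macrophages, 427.4, 752.4, 682.7 and 498.1 CPM in retinal microglia, 2967, 3032, 3934 and 3859 CPM in brain microglia, and 0.2256, 0.6967, 0.2736 and 0.9926 CPM in bone marrow monocytes. No 2 populations overlap, and the order from brain to cornea, retina and marrow holds in every library. The cornea macrophages, which carried 899–1220 CPM of the microglial marker list against at least 21700 CPM in retina, thus lay above retinal microglia for this gene. Cornea over retina was 0.86 (SE 0.21; adjusted p = 0.002), and 0.79 (adjusted p = 0.00896) within lane 2. With total counts alone it was 0.07 (adjusted p = 0.779), a scaling under which the median of all genes stood at -0.92. Cornea was lower than brain by -1.69 (SE 0.22, adjusted p = 2.97e-06), and by -1.59 within lane 3, where cornea 4 is the single cornea library.

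In bone marrow monocytes Fcrls was close to the detection limit, with 29 counts over 4 libraries. Their exact 95% Poisson interval is 19.4 to 41.6 counts, or 0.339 to 0.727 CPM pooled, and it covers counting error only. Against that level the fitted differences were 10.98 for cornea (SE 0.35; adjusted p = 1.49e-13), 10.13 for retina (SE 0.34; adjusted p = 3.26e-13) and 12.68 for brain (SE 0.37; adjusted p = 4.45e-14). Per kilobase, Fcrls stood at 2.03 to 3.16 times the Fcgr3 level in cornea libraries and 1.93 to 2.53 times in brain libraries, but only 0.323 to 0.517 times in retinal libraries.

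The counts of members called are read against the share of all tested genes called in the same comparison. In cornea over retina, 4 of 6 tested members were called, where 66% of all genes were called. Of them 2 were higher and 2 lower, beside 30.9% and 35.1% of all genes, and 3 of the 6 did not overlap between the populations, against 59.1% of genes. In cornea over brain, 5 of 6 were called, where 66.8% of genes were called. Of them 3 were higher and 2 lower, beside 33.8% and 33.1% of genes, and 5 did not overlap, against 62.4%. In cornea over marrow, 4 of 6 were called, all higher, where 63.3% of genes were called (32.2% higher and 31.1% lower), and 3 did not overlap, against 57.9%.

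In the remaining comparisons all 7 members were tested. In retina over brain, 2 were called, Fcgr4 higher and Fcrls lower, where 10.5% of genes were called (6.95% higher and 3.6% lower), and both were the members without overlap, against 18.1% of genes. In retina over marrow, 6 of 7 were called, all higher, where 59.3% of genes were called (32.2% higher), and 6 did not overlap, against 55.2%. In brain over marrow, 5 of 7 were called, all higher, where 56% of genes were called (28.5% higher), and 5 did not overlap, against 56.7%. The median difference of the members was 1.45 in retina over marrow and 0.82 in brain over marrow, beside medians over all genes of 0.12 and 0.04. The same medians were 0.03, 0.22, 0.72 and 0.13 in cornea over retina, cornea over brain, cornea over marrow and retina over brain, beside -0.12, 0.00, 0.00 and 0.05 over all genes.

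**Figure D4:**
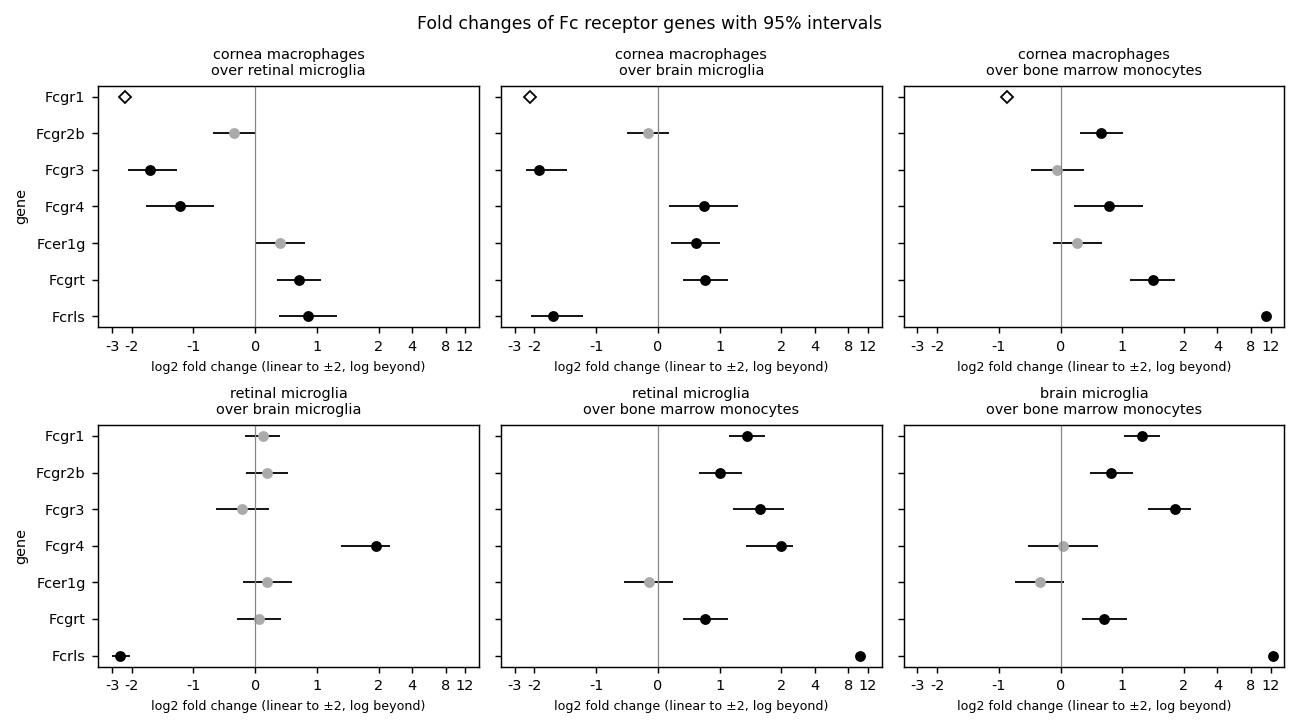
Log2 fold changes (first named population over the second, axis linear to ±2 and logarithmic beyond) of the 7 genes in 6 comparisons, with 95% intervals from the edgeR fit; black points passed at adjusted p under 0.05, grey points did not, and open diamonds mark Fcgr1 where it was not tested. In retina over brain only Fcgr4 and Fcrls are black, whereas in retina over marrow every gene but Fcer1g is black and to the right of 0.

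Scaling matters most in the cornea comparisons, because TMM factors were 0.661 to 0.705 in cornea libraries and 1.07 to 1.25 in all others. With total counts alone the median of all genes moved to -0.92 in cornea over retina, and to -0.67 in both cornea over brain and cornea over marrow. Under that scaling the members called were 0 higher and 3 lower in cornea over retina, 0 higher and 3 lower in cornea over brain, and 2 higher and 2 lower in cornea over marrow. Of all genes, 18.6% were higher and 53.9% lower in cornea over retina under total counts, 22.6% and 48.3% in cornea over brain, and 22.2% and 47.8% in cornea over marrow. Fcgr3 was called lower in cornea under this scaling too, by -2.50 against retina (adjusted p = 1.32e-08) and -2.58 against brain (adjusted p = 8.66e-09). For Fcgrt the excess in cornea was called against marrow (0.81, adjusted p = 0.000133) and not against retina or brain.

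Retina and brain were never on the same lane: all retinal libraries were on lane 2 and all brain libraries on lane 3, so no within-lane value exists for them. A fit with lane as a term, which takes the lane difference from the cornea and marrow libraries, called 463 genes in place of 1662. In it Fcgr4 gave 1.53 (adjusted p = 0.0251) and Fcrls -2.15 (adjusted p = 0.00679), and the other 5 members were not called. Whether handling also differed between retina and brain is not known, since no source used here gives the tissue steps for brain. Lane or handling and population cannot be told apart beyond that fit.

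Of the 12 other Fc receptor and Fc receptor-like genes in the table, 3 passed the filter: Trim21, Fcrl1 and Fcrlb. The IgE receptor chains Fcer1a and Ms4a2, the IgM receptor Fcmr and the polymeric immunoglobulin receptor Pigr stayed below 1 CPM in all libraries. Fcrl1, a receptor best known from B cells, averaged 13.85 ± 4.79 CPM in cornea macrophages, 31.14 ± 3.56 CPM in retinal microglia, 85.26 ± 15.5 CPM in brain microglia and 10.92 ± 3.21 CPM in bone marrow monocytes. It was lower in cornea than in retina by -1.18 (adjusted p = 0.000564) and than in brain by -2.63 (adjusted p = 1.26e-07), and lower in retina than in brain by -1.45 (adjusted p = 0.000969). It exceeded marrow in retina by 1.51 (adjusted p = 7.61e-05) and in brain by 2.96 (adjusted p = 4.36e-08), while cornea over marrow was 0.33 (adjusted p = 0.268).

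Beside Fcrl1, the B-cell marker list of 5 genes summed to 3.23–4.91 CPM in cornea, 42.9–79.8 CPM in retina, 50.9–77.5 CPM in brain and 23.1–29.7 CPM in marrow. Nearly all of it was Cd79b, with 56.52 CPM in retina and 61.58 CPM in brain, whereas Pax5 had no count in cornea, retina or brain. Trim21, the cytosolic antibody receptor, averaged 18.14 ± 13.3 CPM in cornea, 39.24 ± 10.5 CPM in retina, 39.59 ± 5.57 CPM in brain and 61.75 ± 10.8 CPM in marrow. Cornea was lower than marrow by -1.76 (adjusted p = 0.000323), and its ranges overlap those of retina (-1.10, adjusted p = 0.00993) and brain (-1.12, adjusted p = 0.00919). The retina difference was lost without the 3 libraries whose titles lack a letter b (-1.01, adjusted p = 0.0708), and the brain difference with lane as a term (-0.50, adjusted p = 0.166).

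Tyrobp encodes DAP12, an adaptor with the same kind of tyrosine motif as the gamma chain. It averaged 449.2 ± 42.1 CPM in cornea macrophages, 622.1 ± 114 CPM in retinal microglia, 606 ± 115 CPM in brain microglia and 865 ± 163 CPM in bone marrow monocytes. It was thus lowest in cornea, where the mean TMM-scaled CPM of Fcer1g was highest, a rank that Fcer1g did not keep with total counts alone. Cornea was lower than marrow by -0.95 (adjusted p = 0.00012) with no overlap. Its differences from retina (-0.47, adjusted p = 0.0215) and brain (-0.43, adjusted p = 0.0323) overlap in range. The first was lost without retina 3 (adjusted p = 0.0723) and the second without cornea 3, cornea 4, brain 3 or brain 4 (adjusted p = 0.052 to 0.0944). The microglial differences from marrow, -0.48 in retina (adjusted p = 0.0228) and -0.51 in brain (adjusted p = 0.0157), were likewise lost without single libraries: the first without retina 2, retina 4, marrow 1 or marrow 2, the second without brain 2 or marrow 2.

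Besides the IgG receptors, the gamma chain carries C-type lectin and paired immunoglobulin-like receptors, and 4 of 9 listed genes of that kind were tested. All 4 were higher in cornea than in either microglial population, and all 4 were lower in both microglial populations than in marrow. In brain, Clec4e, Clec4d and Clec4n averaged at most 0.04281 CPM and Pira2 0.7282 CPM, and in retina Clec4d and Clec4n averaged 0.4267 and 0.2669 CPM. The filter thus kept the lectin genes through other populations, so their lower levels in brain, and mostly in retina, were largely fixed in advance. Of all genes, 30.9% were higher in cornea than in retina and 33.8% higher in cornea than in brain. Those lower than in marrow were 27.1% in retina and 27.4% in brain. Clec4e (Mincle), a receptor for mycobacterial glycolipid and products of dead cells, averaged 1645 ± 138 CPM in cornea macrophages, 2.305 ± 2.03 CPM in retinal microglia, 0.04281 ± 0.0856 CPM in brain microglia and 25.04 ± 5.11 CPM in bone marrow monocytes. Its relatives Clec4d and Clec4n (Dectin-2) followed the same order: Clec4d averaged 1121 CPM in cornea and at most 4.924 CPM elsewhere, and Clec4n 300.5 CPM in cornea and at most 3.189 CPM elsewhere. In cornea over marrow they were higher by 6.04 (Clec4e, adjusted p = 2.28e-08), 7.84 (Clec4d, adjusted p = 8.17e-12) and 6.58 (Clec4n, adjusted p = 1.62e-09). The 3 lectin genes had their highest levels in cornea, which in TMM-scaled CPM also had the lowest Fcgr1 and the highest mean Fcer1g. With total counts alone, Fcer1g was lower in cornea than in retina (-0.37), brain (-0.06) and marrow (-0.41).

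Pira2, a paired immunoglobulin-like receptor, was the exception, with 7.56 CPM in cornea, 2.094 CPM in retina, 0.7282 CPM in brain and 107.3 CPM in marrow. Its near-identical paralogs make its counts uncertain. Only cornea was digested warm with collagenase among the tissues whose handling is given, and the part of that step in the lectin levels was not tested.

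Downstream of the activating receptors, 29 listed signalling genes were all tested. In cornea over retina 13 were higher and 8 lower (median 0.36), in cornea over brain 13 and 9 (median 0.27), and in cornea over marrow 15 and 10 (median 0.49). Beside them stand 30.9% of all genes higher and 35.1% lower in cornea over retina, 33.8% and 33.1% in cornea over brain, and 32.2% and 31.1% in cornea over marrow. With total counts alone the list gave 10 higher and 13 lower, 11 and 14, and 8 and 12. Of all genes under that scaling, 18.6% were higher and 53.9% lower, 22.6% and 48.3%, and 22.2% and 47.8%. In retina over brain 2 were higher and 4 lower (median -0.20), in retina over marrow 7 and 13 (median -0.23), and in brain over marrow 8 and 11 (median 0.05). The same shares of all genes were 6.95% and 3.6%, 32.2% and 27.1%, and 28.5% and 27.4%. The kinase Syk, named here after its values were seen because it binds the phosphorylated gamma chain, averaged 649.9 ± 52.7 CPM in cornea macrophages, 147.3 ± 21.8 CPM in retinal microglia, 217.1 ± 28 CPM in brain microglia and 463.6 ± 25.8 CPM in bone marrow monocytes. No 2 populations overlap for Syk, and it passed in every comparison, with cornea over retina at 2.14 (adjusted p = 2.78e-10) and retina over brain at -0.56 (adjusted p = 0.0079). With lane as a term retina over brain was -0.48 (adjusted p = 0.217), and with total counts alone cornea over marrow, 0.49 in the TMM fit, was -0.19 (adjusted p = 0.191).

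Among the genes of that list chosen by size of change, the exchange factor Vav3 was near 0 in both microglial populations, and the adaptor Blnk was near 0 in marrow. Vav3 averaged 269.7 CPM in cornea, 0.2894 CPM in retina, 0.107 CPM in brain and 112.7 CPM in marrow. Blnk averaged 340.6 CPM in cornea, 216.7 CPM in retina, 251.3 CPM in brain and 0.9349 CPM in marrow. The phospholipase Plcg1 was low in both non-microglial populations, with 3.554 CPM in cornea, 48.67 CPM in retina, 72.09 CPM in brain and 7.453 CPM in marrow. Malt1, which acts with Card9 and Bcl10 below the C-type lectins, averaged 489.9 CPM in cornea, 28.97 CPM in retina, 36.01 CPM in brain and 141.8 CPM in marrow. Between the microglial populations, the adaptor Lat2 was higher in retina, with 194.3 CPM against 77.79 CPM in brain (1.32, adjusted p = 6.93e-06). Lyn was lower in retina, with 529.3 CPM against 787.8 CPM in brain (-0.57, adjusted p = 0.0107), and lost its call with lane as a term (-0.71, adjusted p = 0.0893).

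The 12 listed genes of inhibitory signalling were all tested. In cornea over retina 5 were higher and 6 lower (median -0.93), in cornea over brain 4 and 6 (median -0.63), and in cornea over marrow 1 and 7 (median -0.93), where 66%, 66.8% and 63.3% of all genes were called, at about equal shares higher and lower. Scaled by total counts alone, these became 2 higher and 7 lower, 2 and 8, and 1 and 10. All genes then stood at 18.6% higher and 53.9% lower, 22.6% and 48.3%, and 22.2% and 47.8%. In retina over brain 0 were higher and 1 lower, and that call was Inpp5d. In both retina over marrow and brain over marrow 3 were higher and 7 lower, where 59.3% and 56% of all genes were called. Inpp5d (SHIP1), the phosphatase on which Fcgr2b acts, averaged 168.9 ± 29.5 CPM in cornea macrophages, 631 ± 119 CPM in retinal microglia, 976.7 ± 111 CPM in brain microglia and 294.3 ± 18 CPM in bone marrow monocytes. Its 4 populations do not overlap. Cornea was lower than retina by -1.90 (adjusted p = 1.38e-08) and than marrow by -0.80 (adjusted p = 0.000224), and retina was lower than brain by -0.63 (adjusted p = 0.013). That last call was lost with total counts alone (-0.50, adjusted p = 0.0518) and with lane as a term (-0.72, adjusted p = 0.138).

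Ptpn6 (SHP-1), another phosphatase of inhibitory receptors, averaged 108 ± 10.1 CPM in cornea, 529.3 ± 77.6 CPM in retina, 413.1 ± 34.1 CPM in brain and 876 ± 68.5 CPM in marrow, and was lower in cornea than in marrow by -3.02 (adjusted p = 4.31e-12). The cornea population thus had the lowest level of both phosphatases while its Fcgr2b share of the receptors was the highest. Pag1, the membrane adaptor that recruits the kinase Csk, averaged 15.51 CPM in cornea, 231.4 CPM in retina, 225.7 CPM in brain and 19.93 CPM in marrow.

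Of the 27 listed genes of actin and uptake machinery, all tested, 14 were higher and 9 lower in cornea over retina (median 0.41), 14 and 12 in cornea over brain (median 0.50), and 7 and 11 in cornea over marrow (median -0.22), where 66%, 66.8% and 63.3% of all genes were called. With total counts alone these became 9 higher and 15 lower, 10 and 13, and 5 and 18. The shares of all genes were then 18.6% higher and 53.9% lower, 22.6% and 48.3%, and 22.2% and 47.8%. In retina over brain 1 was higher and 5 lower, in retina over marrow 6 and 16, and in brain over marrow 10 and 13, where 10.5%, 59.3% and 56% of all genes were called. Myo1e, a myosin of phagocytic cups, averaged 718.3 CPM in cornea, 53.27 CPM in retina, 41.89 CPM in brain and 1.426 CPM in marrow. The actin-severing protein Gsn averaged 280.4 CPM in cornea and 277.9 CPM in marrow, against 19.15 CPM in retina and 5.409 CPM in brain. Between the microglial populations Pak1, with 78.78 CPM in retina against 153.5 CPM in brain (-0.96, adjusted p = 0.000244), and Elmo2, with 70.75 CPM in retina against 128.4 CPM in brain (-0.86, adjusted p = 0.000457), were lower in retina.

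Of the few calls of these 3 lists in retina over brain, part of those lower in retina depended on lane and on single libraries. Lat2, Pak1 and Elmo2 kept their calls with lane as a term and without any 1 library. With lane as a term, 2 activating signalling genes were higher and 0 lower, and 1 actin gene was higher and 2 lower. No inhibitory gene was called (0 higher and 0 lower). Of all 15754 genes, that fit called 463 in place of 1662. Leaving out 1 library gave 2 to 5 lower activating genes and 3 to 7 lower actin genes, while 2 activating genes and 1 actin gene stayed higher throughout.

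**Figure D5:**
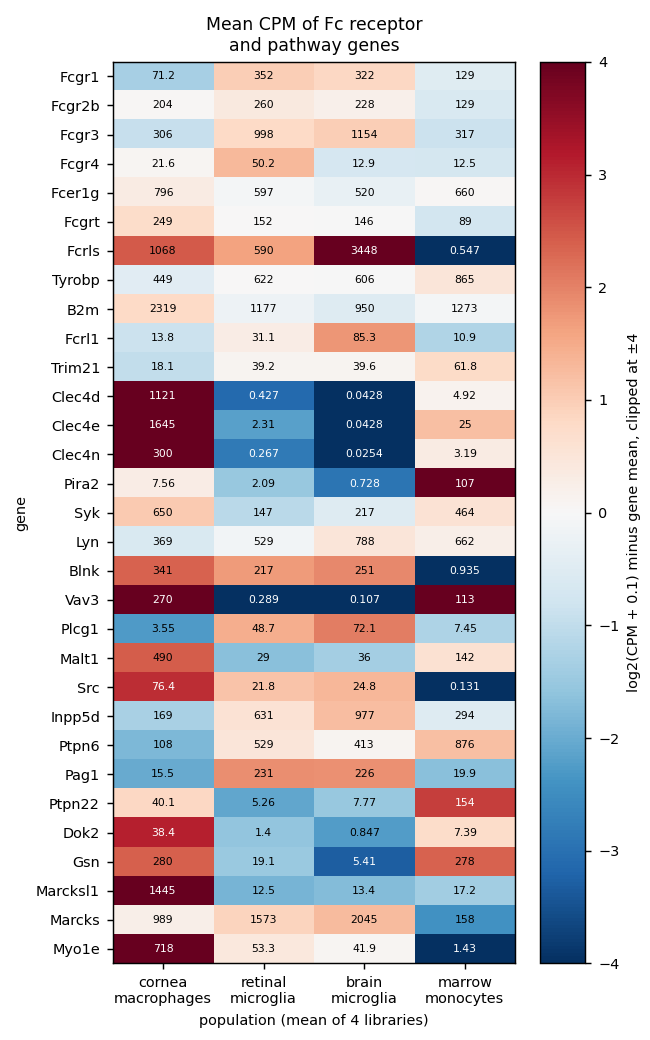
Mean CPM (numbers) of the 7 genes and named pathway genes in cornea macrophages, retinal microglia, brain microglia and bone marrow monocytes, coloured by log2(CPM + 0.1) minus the gene's mean and clipped at ±4. The lectin genes Clec4d, Clec4e and Clec4n are high in cornea alone, Blnk and Fcrls are low in marrow alone, and Fcer1g changes little across the row.

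The genes whose pattern was most like each member were found by the root mean square difference of centred log2 CPM over the 16 libraries, a description that carries no test. Nearest to Fcgr1 was Tspan14 (0.215), which averaged 94.58 CPM in cornea, 507.4 CPM in retina, 569.4 CPM in brain and 217.1 CPM in marrow, followed by Zfyve21 and Glb1. Nearest to Fcgr3 were Dhrs7b (0.238), Prpsap2 and Slc35b2, to Fcgr2b Nptn (0.149), Utp11l and Nop16, and to Fcgrt Plbd2 (0.143), Glmp and Krcc1. Fcer1g lay nearest to the ribosomal protein gene Rpl30 (0.137) and 2 predicted genes, Gm10073 and Gm11221. Nearest to Fcgr4 was Mfge8 (0.495) and to Fcrls Pmepa1 (0.992). The measure grows with a gene's own spread, an SD of 0.89 for Fcgr4 and 4.88 for Fcrls, so its values do not rank matches between members. No member was among the 3 nearest genes of another member.

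The genes that neighbour the members were examined as well. Of 95 other annotated genes within 100 kb of a member, 45 were tested. Of them 66.7% were called in cornea over retina, 62.2% in cornea over brain and 60% in cornea over marrow. In retina over brain 6.67% were called, in retina over marrow 64.4% and in brain over marrow 48.9%. The shares of all genes called, in the same order, were near these at 66%, 66.8%, 63.3%, 10.5%, 59.3% and 56%. In retina over brain the 3 called neighbours were Irf3 near Fcgrt (0.70, adjusted p = 0.0217), Slc17a7 near Fcgrt (12.62, adjusted p = 0.000274) and Kirrel near Fcrls (7.51, adjusted p = 0.0367). Neither Slc17a7 nor Kirrel had a count in brain, so the size of their differences rests on that floor. Kirrel was barely detected in retina, at 1.574 ± 2.24 CPM with counts in 3 libraries, and Slc17a7 had 55.04 ± 45.7 CPM. Slc17a7 encodes the vesicular glutamate transporter VGLUT1, which photoreceptors express, and the photoreceptor list summed to 689–6210 CPM in retina against at most 2.05 CPM in brain.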

How the data were processed

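The deposited table holds raw read counts per gene symbol for 16 libraries and, per the file headers, a gene Length column in bases. Per the submitters' processing notes, CASAVA 1.8.2, Subread, featureCounts and limma were used with genome build GRCm38.p4; the annotation release, strand setting and treatment of reads matching several genes appear in no source used here. Libraries were mapped to groups by their source label, and replicate numbers follow accession order and pair nothing. The members and gene lists were chosen with earlier results of these data known.

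Counts were analysed in edgeR 4.0.16 (R 4.3.3; limma 3.58.1) with TMM scaling and a filter on low counts by population (filterByExpr, minimum count 10), which kept 15754 of 45664 entries. Of all entries, 27 had symbols turned into dates and held at most 0.223% of a library's counts. The quasi-likelihood test was fitted on all 16 libraries with population as the term (12 residual degrees of freedom), and p-values were adjusted by the Benjamini-Hochberg method across those 15754 genes, with 0.05 as the threshold for a call. The SE of a log2 fold change is its size divided by the square root of the F statistic. CPM values use TMM-scaled library sizes, and log2 CPM a prior count of 2. Total counts were 8.68 M to 21.76 M per library. Pairs of libraries of 1 population differed by 11.29 to 95.5 times the counting noise (chi-square per degree of freedom), so none was a copy of another.

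Genes were named by rule: the 7 members, Tyrobp, B2m, the 3 called genes of each list with the largest change and at least 20 CPM in the higher population, the 3 nearest genes of each member, and tested neighbours within 100 kb. Syk was named after its values were seen, as were Inpp5d and Ptpn6 in comparisons where they are not among the 3. Promoters are from RefSeq and transcripts from GENCODE vM21. The alternatives were RLE size factors, total counts, no filter, DESeq2 1.42.0, limma-voom, only the 8 libraries compared, lane as a term, single lanes, leaving out 3 libraries whose titles lack a letter b and share a number with another library, a replicate block and leaving out each library. Their effect on the gene lists was examined after seeing the data. Results on a few items are not reported here.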

Additional observations from a re-analysis of the deposited data

Results flagged for a closer look

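Among the 28 groups of 4 libraries (7 genes in 4 populations), 3 held a library whose gap to its nearest neighbour was larger, as a share of the group's range, than Dixon's 95% critical value. Chance marks about 1 in 20 groups. For Fcgr2b in retina, retina 4 had 199.5 CPM, below the other retinal libraries (gap ratio 0.855), and without it Fcgr2b was lower in cornea than in retina by -0.47 (adjusted p = 0.0153). For Fcgr4 in brain, brain 1 had 7.877 CPM, below the other brain libraries (0.881). For Fcgr4 in marrow, marrow 1 had 20.12 CPM, above the other marrow libraries (0.879). Marrow 1 was the only marrow library on lane 2. It had the highest marrow sums of neutrophil (4396 CPM) and erythroid (1645 CPM) markers, although its gate should remove neutrophils. Its NK sum (18.41 CPM) and mast cell sum (11.55 CPM) were also the highest, but the first was Nkg7 alone and the second mostly Kit. The part of other cell types in its Fcgr4 level was not tested.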

How the results depend on the processing

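Of 39 tests of single members, 26 were called, and 17 of these stayed called in the same direction under every alternative run. The number of members called moved by over 1.5 times in 4 fits. In cornea over brain it moved to 3 with total counts and to 3 with lane as a term, where 11175 and 9200 of 15754 genes were called. The other fits were cornea over brain within lane 3 and cornea over marrow within lane 2, each with 1 library of a population. Leaving out 1 library gave 4 to 6 called members in cornea over retina, 4 to 5 in cornea over brain and 3 to 4 in cornea over marrow. It gave 2 to 2 in retina over brain, 6 to 6 in retina over marrow and 5 to 6 in brain over marrow. Of 16174 to 16472 genes tested in those fits, the cornea comparisons called 10108 to 10790, 10219 to 10981 and 9585 to 10470. The remaining comparisons, in the same order, called 1140 to 2005, 8706 to 10026 and 8153 to 9309. With the replicate block, 5 members were called in brain over marrow, and 8574 genes in place of 8817; the block rests on number ranges that 2 brain and 2 marrow titles share, whose meaning is not given, and it changed no member's call. Fits within a lane that holds 1 library of a population borrow its spread from the others.

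Total counts in place of TMM turned 5 cornea differences: Fcer1g to -0.37 and Fcgrt to -0.08 against retina, Fcer1g to -0.06 against brain, and Fcgr2b to -0.01 and Fcer1g to -0.41 against marrow. Fcgr3 in cornea over marrow, -0.05 and not called, was 0.04 with RLE factors and with DESeq2, 0.02 in the 8 libraries compared, 0.06 with lane as a term, 0.45 within lane 3 and 0.03 without the 3 libraries whose titles lack a letter b. Of the uncalled differences in retina over brain, lane as a term gave -0.13 for Fcgr2b, 0.07 for Fcgr3 and -0.02 for Fcer1g, and leaving out those 3 libraries gave -0.08 for Fcer1g and -0.06 for Fcgrt. Fcgr4 in brain over marrow was -0.03 with limma-voom. Leaving out 1 library turned 3 uncalled differences, which ranged from -0.27 to 0.06 for Fcgr3 in cornea over marrow, from -0.07 to 0.19 for Fcgrt in retina over brain, and from -0.09 to 0.37 for Fcgr4 in brain over marrow. The causes were not tested. Depth limits Fcrls in marrow, with 29 counts in all.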
